A study of Drosophila melanogaster with 18 samples.

Results

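The Jonah and trypsin genes of Drosophila melanogaster encode secreted serine proteases of the gut. The 31 genes described here were the rows of the count table whose FlyBase symbol is a Jonah gene or yip7 (17 genes), a trypsin gene of the alphaTry to lambdaTry series (11 genes) or a Ser gene (3 genes), out of 17562 genes in the table. The rule uses gene names only. Whole third-instar larvae of 5 deletion strains and the WT were sequenced, with 3 replicates in each of the 6 groups. The labels give total RNA depleted of rRNA, while the study's supplement speaks of mRNA sequencing. Each deletion strain (21D, 82Eb, 95Ca, 95Cb and 95Cc) is homozygous for the loss of a single U1 snRNA gene, the gene after which the strain is named, made with CRISPR/Cas9. The WT is a w1118 isogenic strain (BDSC 5905), to which the deletion lines had been crossed over several generations. Each deletion is represented by 1 strain. The number of larvae in a sample and the hours since the last moult are not stated, and p-values measure the spread between these samples.

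Digestive proteases of the trypsin and chymotrypsin type are made as inactive precursors by enterocytes, the absorptive and secretory cells of the midgut, and are released into the gut lumen, where they cut dietary protein. Trypsins cleave after lysine or arginine. The Jonah genes are named after their transcription in the larval gut and by the chromosome band in which they lie, and their products are related to chymotrypsins and elastases. Larvae feed and grow until they leave the food late in the third instar, and transcription of digestive enzyme genes in the midgut changes with feeding and with the moulting hormone ecdysone. U1 snRNA is the RNA of the particle that recognises the 5′ splice site, and it also acts on transcription and on premature cleavage and polyadenylation.

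The study followed Jon25Biii, the most abundant member of the 25B cluster, by RT-PCR, and its primers are shown because they mark the transcript on which that assay rests (FBgn0031653, 2L:4949941-4950767, minus strand, 1 exon).
Jon25Biii forward primer: cgccttcgacgagaaggtcttc
Jon25Biii reverse primer: cgttgccaacggtgtgggtgaac

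Library depth was between 11919121 and 21776613 counts. A library in each group stood apart from the other 2 on the first principal component of the 500 most variable genes (52.0% of the variance), namely replicate 2 of the 21D strain, the 82Eb strain and the WT, and replicate 1 of the 95Ca, 95Cb and 95Cc strains. Of those 500 genes 18 were members, and 3 of them were among the 10 with the largest loadings. The same library of each group stood apart when the members were left out of the component (51.1% of the variance). Results are therefore given with and without these libraries. The deleted U1 gene had 0 counts in every library of the 21D, 82Eb, 95Cb and 95Cc strains, but the library labelled 95Ca replicate 2 had 5 counts on 95Ca, against 4 counts over the 3 WT libraries. The U1 genes are near-identical, so that these counts are uncertain. Strains that carry a U1 gene also had 0 counts on it, namely 82Eb in the 95Cb strain, 95Ca in 82Eb and 95Cb in 95Cc. A count of 0 therefore does not show the deletion. The library labelled 95Ca replicate 2 also had 24 counts on 95Cc, against 5 over the 3 WT libraries. Results for the 95Ca strain include that library unless stated.

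All 31 genes are short, with an exonic length of 810 to 1397 bases (median 901), and 25 of them have no intron in the annotation. The intronless genes include all 11 trypsins and all 3 Ser genes. Among the Jonah genes with yip7, 11 have none, 5 have 1 intron (yip7, Jon65Aiv, Jon65Aiii, Jon65Aii and Jon99Ci) and Jon74E has 2. In dm6 coordinates, 26 members lie in 6 clusters in which neighbouring members are less than 50 kb apart. The 25B cluster holds Jon25Biii, Jon25Bii and Jon25Bi (2L:4949941-4955144), and the 65A cluster yip7, Jon65Aiv, Jon65Aiii, Jon65Aii and Jon65Ai (3L:6035216-6054443). The 66C pair Jon66Ci and Jon66Cii (3L:8391540-8393649), the 99C trio Jon99Ciii, Jon99Cii and Jon99Ci (3R:29922216-29926189) and the 99F pair Jon99Fii and Jon99Fi (3R:30487016-30489895) are smaller. All 11 trypsins lie within 20698 bases of 2R (11336840 to 11357537), in the order lambdaTry, kappaTry, zetaTry, etaTry, thetaTry, alphaTry, epsilonTry, betaTry, gammaTry, deltaTry and iotaTry. Jon44E, Jon74E, Ser6, Ser8 and Ser12 lie alone.

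Some of these counts are uncertain. gammaTry, deltaTry and their neighbours CG30025 and CG30031 are near-identical in sequence, and the setting for reads that map to several places is not stated. The ends of lambdaTry and kappaTry are 5 bases apart on opposite strands, and deltaTry shares 15 bases with CG13202 on the other strand. The libraries are strand-specific, but the strand setting of the counting is not stated.

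In the WT, the levels of the members spread over a wide range. Per kilobase of exon, Jon65Aiv was the highest at 4476 CPM (mean of 3 libraries), followed by Jon25Biii at 3516, Jon65Aiii at 2703 and Jon66Ci at 2685 CPM per kb. The spread of these 4 between WT libraries was larger than the steps between them. The highest trypsin was epsilonTry at 961 CPM per kb, and thetaTry had 373. At the low end were lambdaTry at 5.06, Ser8 at 2.41 and gammaTry at 1.07 CPM per kb. Ser12 had 0 counts in all 18 libraries, where a count of 0 allows up to 0.138 CPM in the deepest library and 0.252 CPM in the shallowest.

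Summed over the 31 genes, digestive proteases took a smaller mean share of the counts in each deletion strain than in the WT, but the groups overlapped. The share in replicates 1, 2 and 3 was 0.549%, 0.0324% and 1.15% (21D), 0.898%, 0.125% and 0.774% (82Eb), 0.104%, 0.817% and 0.419% (95Ca), 0.312%, 0.715% and 0.883% (95Cb) and 0.388%, 0.64% and 0.817% (95Cc), against 3.29%, 0.422% and 3.36% in the WT. WT replicate 2, the library that stood apart, lay within the range of the strain libraries, while the other 2 WT libraries were above all 15 of them. Jonah genes made up most of the sum. The trypsins alone took at most 0.124% of the counts in a strain library (21D replicate 3), against 0.33%, 0.102% and 0.327% in the WT. Whole larvae were sequenced, so that fewer gut cells and less RNA per gut cell cannot be told apart.

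Comparing each strain with the WT asks which protease genes changed when a single U1 gene was lost. Genes were called when the adjusted p (edgeR's quasi-likelihood test, Benjamini-Hochberg over all genes tested) was below 0.05 and the fold change above 2. Of the 31 members 29 passed the filter on low counts in every comparison, and gammaTry and Ser12 did not. With all 3 replicates, the number of the 29 called lower was 7 (21D), 12 (82Eb), 10 (95Ca), 12 (95Cb) and 9 (95Cc). Over all genes tested, the share called lower was 0.892% (21D), 3.8% (82Eb), 2.51% (95Ca), 5.96% (95Cb) and 2.73% (95Cc). No member was called higher in any strain by edgeR or by DESeq2, and at an unadjusted p below 0.05 only zetaTry in 95Cc and Ser8 in 82Eb were higher. Of all genes tested, 0.121% (21D), 0.733% (82Eb), 0.241% (95Ca), 1.43% (95Cb) and 2.07% (95Cc) were called higher.

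The median log2 fold change of the 29 members was -2.08 (21D), -2.28 (82Eb), -2.65 (95Ca), -2.41 (95Cb) and -1.82 (95Cc), while the median of all genes tested lay between -0.02 and 0.03. Called in all 5 strains were 5 members, thetaTry, etaTry, Jon99Ci, Jon74E and Ser6, and 4 more were called in 4 strains (kappaTry, lambdaTry, iotaTry and Jon65Aii). Every one of the 3 strain libraries was below every WT library for 13 (21D), 14 (82Eb), 16 (95Ca), 13 (95Cb) and 15 (95Cc) of the 31. This was so for 10.1% (21D), 9.76% (82Eb), 10.6% (95Ca), 14.3% (95Cb) and 11.7% (95Cc) of all genes tested. The 5 comparisons share the WT libraries, so their calls are not independent of each other.

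Single libraries moved some of these counts. In 21D, no member was called without 21D replicate 1 by edgeR (10 of 29 still had an unadjusted p below 0.05), 3 were called without 21D replicate 3, and 2 when any 1 of the 3 WT libraries was left out. The 21D calls of thetaTry and kappaTry were lost only without 21D replicate 1 (adjusted p = 0.0641 for each), while those of Jon74E, Jon99Ci, etaTry, lambdaTry and Ser6 were lost without that library and without each WT library (adjusted p between 0.0878 and 0.296). Those of Jon74E, Jon99Ci, etaTry and lambdaTry were also lost without 21D replicate 3 (adjusted p = 0.105, 0.0569, 0.0985 and 0.113), and those of Jon74E and lambdaTry with library totals (adjusted p = 0.0576 and 0.0725) and with the length correction (adjusted p = 0.085 and 0.117). In 95Cb and 95Cc, leaving out WT replicate 2 raised the count to 24 and 26. Without the library labelled 95Ca replicate 2, 11 members were called in 95Ca. The share of all genes called is not given for these fits with a library left out. Their counts therefore do not show whether members moved more than other genes. Where same-numbered replicates deviated together, in 21D and 82Eb, a fit with the replicate number as a block called 21 and 25 members lower, against 2.99% and 7.05% of all genes. This pairing was read from the same counts, in groups that share replicate 2 as the library that stood apart, and no label gives it. Calls and p-values with the block hold only if the pairing is real, which was not tested. The adjusted p with the block is given beside most of the members described that gained a call. Among those without it there, Jon25Bii was called with the block in 21D (adjusted p = 0.00962) and 82Eb (adjusted p = 5.98e-05). Jon99Fi was called with the block in 21D (adjusted p = 0.049).

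DESeq2 called more members than edgeR, all of them lower, with 10 (21D), 15 (82Eb), 17 (95Ca), 18 (95Cb) and 16 (95Cc), against 1.95% (21D), 4.45% (82Eb), 3.51% (95Ca), 6.2% (95Cb) and 3.1% (95Cc) of all genes. With replicates 1 and 3 of each group only, edgeR called 20 (21D), 26 (82Eb), 21 (95Ca), 21 (95Cb) and 22 (95Cc), against 3.14% (21D), 7.92% (82Eb), 2.95% (95Ca), 5.62% (95Cb) and 3.04% (95Cc) of all genes. In 95Ca, 95Cb and 95Cc, where the replicate numbers did not pair the samples, the block gave 6, 11 and 7 calls, against 0.746%, 2.7% and 1.4% of all genes.

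**Figure D1:**
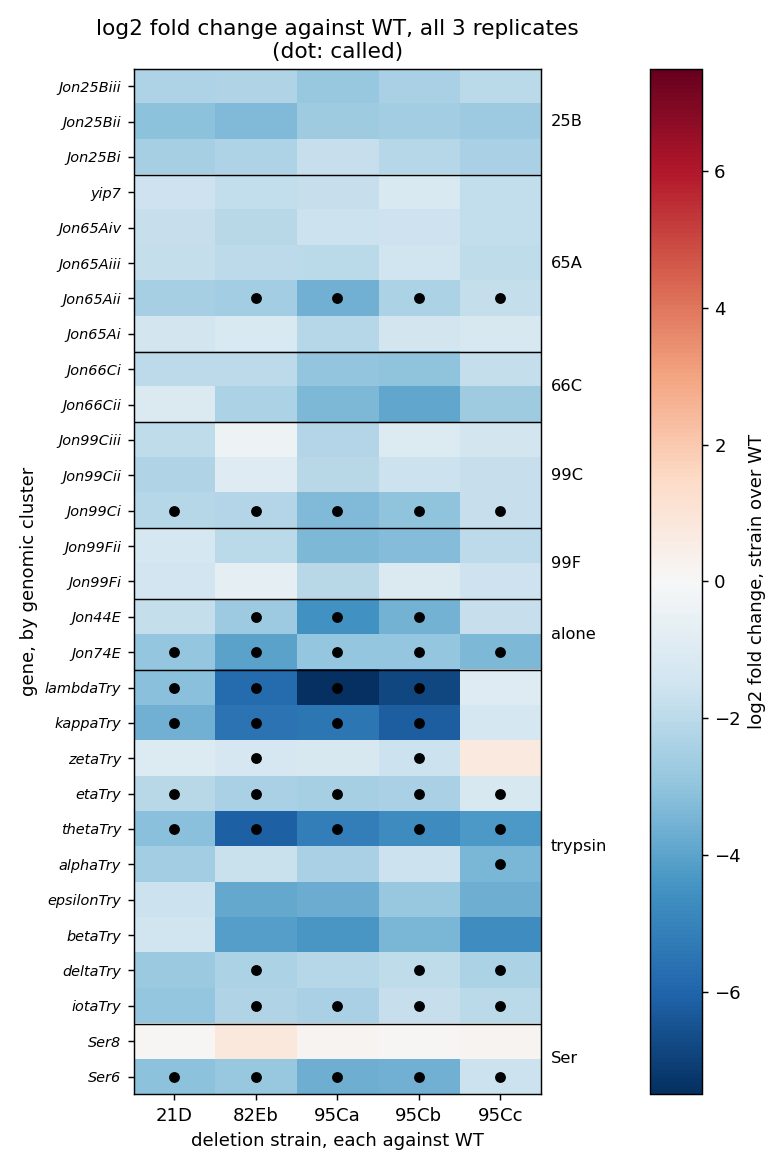
Log2 fold change of each of the 29 tested genes (rows, grouped by genomic cluster) in each deletion strain against the WT (columns), from edgeR with all 3 replicates; blue is lower in the strain, and a black dot marks an adjusted p below 0.05 with a fold change above 2. The dots gather on thetaTry, etaTry, Jon99Ci, Jon74E and Ser6, called in all 5 strains, while the 25B, 66C and 99F clusters are blue throughout without a dot, and zetaTry in 95Cc and the Ser8 row are the only values above 0.

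thetaTry fell in all 5 strains, by a log2 fold change of over 3 in each. thetaTry had 42.0, 40.8 and 39.8 CPM in the 21D strain, 4.82, 7.79 and 3.93 CPM in the 82Eb strain, 10.8, 9.59 and 9.99 CPM in the 95Ca strain, 16.9, 13.5 and 15.9 CPM in the 95Cb strain and 20.5, 17.4 and 20.0 CPM in the 95Cc strain, against 318, 515 and 338 CPM in the WT (replicates 1 to 3). Every strain library was below every WT library, and the lowest WT library was well above the highest strain library. For thetaTry, the log2 fold change against the WT (± SE) was -3.16 ± 0.22 in 21D (adjusted p = 0.00463), -6.12 ± 0.25 in 82Eb (adjusted p = 0.000146), -5.16 ± 0.20 in 95Ca (adjusted p = 0.000226), -4.69 ± 0.20 in 95Cb (adjusted p = 0.000139) and -4.28 ± 0.16 in 95Cc (adjusted p = 0.000188). These calls stood under all 15 alternatives in 82Eb, 95Ca, 95Cb and 95Cc, and under 14 of 15 in 21D. WT replicate 2, which stood apart for many members, was the highest WT library here.

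etaTry, the neighbour of thetaTry, fell less and by similar amounts in 4 strains. etaTry had 13.3, 10.5 and 10.6 CPM in the 21D strain, 7.77, 11.9 and 8.51 CPM in the 82Eb strain, 11.5, 8.05 and 6.23 CPM in the 95Ca strain, 11.9, 9.94 and 8.38 CPM in the 95Cb strain and 24.7, 21.2 and 19.0 CPM in the 95Cc strain, against 56.4, 59.0 and 38.9 CPM in the WT (replicates 1 to 3). The groups did not overlap with the WT in any strain. For etaTry, the log2 fold change against the WT (± SE) was -2.08 ± 0.25 in 21D (adjusted p = 0.0187), -2.43 ± 0.20 in 82Eb (adjusted p = 0.0013), -2.51 ± 0.26 in 95Ca (adjusted p = 0.00299), -2.41 ± 0.20 in 95Cb (adjusted p = 0.000784) and -1.22 ± 0.17 in 95Cc (adjusted p = 0.00796). The 95Cc call was lost without 95Cc replicate 2 (adjusted p = 0.0614) or without 95Cc replicate 3 (adjusted p = 0.0581).

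iotaTry lies at the other end of the cluster. iotaTry had 7.57, 1.91 and 8.43 CPM in the 21D strain, 10.1, 10.3 and 10.3 CPM in the 82Eb strain, 9.15, 10.4 and 6.87 CPM in the 95Ca strain, 21.2, 11.4 and 15.5 CPM in the 95Cb strain and 13.8, 11.3 and 10.8 CPM in the 95Cc strain, against 48.5, 55.7 and 45.9 CPM in the WT (replicates 1 to 3). All strain libraries were below all WT libraries, but 21D replicate 2 was far below the other 2 of its group. For iotaTry, the log2 fold change against the WT (± SE) was -2.92 ± 0.60 in 21D (adjusted p = 0.121), -2.24 ± 0.16 in 82Eb (adjusted p = 0.000737), -2.42 ± 0.24 in 95Ca (adjusted p = 0.00261), -1.71 ± 0.22 in 95Cb (adjusted p = 0.0051) and -2.04 ± 0.13 in 95Cc (adjusted p = 0.000391). It was called in every strain except 21D, where the replicate block gave an adjusted p of 0.0149.

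kappaTry fell to between 0.14 and 0.491 CPM in 82Eb, 95Ca and 95Cb. kappaTry had 1.29, 1.1 and 0.961 CPM in the 21D strain, 0.246, 0.14 and 0.491 CPM in the 82Eb strain, 0.199, 0.431 and 0.32 CPM in the 95Ca strain, 0.248, 0.201 and 0.146 CPM in the 95Cb strain and 8.35, 3.03 and 5.7 CPM in the 95Cc strain, against 12.9, 18.6 and 12.9 CPM in the WT (replicates 1 to 3). Over the 3 libraries these were 16 counts in 82Eb, 17 in 95Ca and 11 in 95Cb, against 720 in the WT. For kappaTry, the log2 fold change against the WT (± SE) was -3.63 ± 0.25 in 21D (adjusted p = 0.00491), -5.51 ± 0.42 in 82Eb (adjusted p = 0.00101), -5.40 ± 0.36 in 95Ca (adjusted p = 0.000473), -6.19 ± 0.26 in 95Cb (adjusted p = 0.000139) and -1.34 ± 0.32 in 95Cc (adjusted p = 0.0579). It was called in 4 strains, and in 95Cc all 3 libraries were below the WT libraries without passing the threshold.

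lambdaTry, the gene next to kappaTry, was also lowest in 82Eb, 95Ca and 95Cb. lambdaTry had 0.429, 0.957 and 0.226 CPM in the 21D strain, 0.0983, 0.14 and 0 CPM in the 82Eb strain, 0, 0.0479 and 0 CPM in the 95Ca strain, 0, 0.1 and 0 CPM in the 95Cb strain and 2.75, 1.52 and 2.76 CPM in the 95Cc strain, against 3.58, 6.21 and 4.65 CPM in the WT (replicates 1 to 3). The strain and WT libraries did not overlap. Over 3 libraries it had 26 (21D), 4 (82Eb), 1 (95Ca), 2 (95Cb) and 119 (95Cc) counts, against 230 in the WT. In CPM over the 3 libraries together this was 60.3-fold lower in 82Eb (95% exact interval 23.2 to 223), 244-fold lower in 95Ca (43.3 to 9671) and 123-fold lower in 95Cb (33.6 to 1019), where the intervals cover counting error only. The gene was called in 21D (log2 fold change -3.14 ± 0.46, adjusted p = 0.0401), 82Eb (adjusted p = 0.00222), 95Ca (adjusted p = 0.00112) and 95Cb (adjusted p = 0.00112). In 95Cc its log2 fold change was -0.98 ± 0.28 (adjusted p = 0.0951), which did not pass.

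zetaTry, between kappaTry and etaTry, gave values on both sides of the WT. zetaTry had 24.3, 5.3 and 20.1 CPM in the 21D strain, 16.7, 14.4 and 14.0 CPM in the 82Eb strain, 20.3, 14.3 and 11.4 CPM in the 95Ca strain, 13.2, 12.4 and 11.7 CPM in the 95Cb strain and 64.2, 62.8 and 57.9 CPM in the 95Cc strain, against 39.5, 32.0 and 37.6 CPM in the WT (replicates 1 to 3). The 3 libraries of 95Cc were above all WT libraries, and those of the other 4 strains were below them. For zetaTry, the log2 fold change against the WT (± SE) was -1.03 ± 0.59 in 21D (adjusted p = 0.814), -1.25 ± 0.24 in 82Eb (adjusted p = 0.0377), -1.21 ± 0.26 in 95Ca (adjusted p = 0.0731), -1.63 ± 0.21 in 95Cb (adjusted p = 0.00514) and 0.76 ± 0.19 in 95Cc (adjusted p = 0.0656). It was called in 82Eb and 95Cb only. The 82Eb call was lost without any 1 of the 3 strain libraries (adjusted p = 0.104, 0.068 and 0.176 without replicates 1, 2 and 3) and without WT replicate 1 or 3 (adjusted p = 0.147 and 0.157).

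alphaTry was called in 95Cc alone, but the difference between 95Cc and another strain did not pass for it. alphaTry had 68.0, 5.67 and 159.8 CPM in the 21D strain, 200.2, 79.0 and 211 CPM in the 82Eb strain, 36.6, 147 and 94.9 CPM in the 95Ca strain, 162, 167 and 207 CPM in the 95Cb strain and 41.0, 43.2 and 62.7 CPM in the 95Cc strain, against 750.4, 172 and 616 CPM in the WT (replicates 1 to 3). WT replicate 2 was far below the other WT libraries, and it still lay above every library of 21D, 95Ca and 95Cc. For alphaTry, the log2 fold change against the WT (± SE) was -2.61 ± 1.21 in 21D (adjusted p = 0.668), -1.64 ± 0.72 in 82Eb (adjusted p = 0.291), -2.40 ± 0.78 in 95Ca (adjusted p = 0.224), -1.64 ± 0.57 in 95Cb (adjusted p = 0.123) and -3.43 ± 0.64 in 95Cc (adjusted p = 0.0249). The 95Cc call was lost when any 1 library other than WT replicate 2 was left out (adjusted p between 0.0734 and 0.125). With the replicate block alphaTry was called in 21D (adjusted p = 0.0267) and 82Eb (adjusted p = 8.74e-05).

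deltaTry was below the WT in every library of every strain. deltaTry had 0.667, 0.368 and 1.87 CPM in the 21D strain, 1.13, 1.61 and 1.47 CPM in the 82Eb strain, 1.09, 2.64 and 0.879 CPM in the 95Ca strain, 2.53, 0.904 and 2.99 CPM in the 95Cb strain and 1.32, 1.7 and 1.19 CPM in the 95Cc strain, against 6.06, 9.48 and 7.22 CPM in the WT (replicates 1 to 3). It was called in 82Eb (log2 fold change -2.38 ± 0.22, adjusted p = 0.00218), 95Cb (-1.88 ± 0.42, adjusted p = 0.037) and 95Cc (-2.38 ± 0.21, adjusted p = 0.00171). The 95Cb call was lost without 95Cb replicate 1 or 3 and without WT replicate 1 or 3 (adjusted p between 0.0697 and 0.12). With the replicate block deltaTry was also called in 21D (adjusted p = 0.024). betaTry and epsilonTry, the abundant trypsins, were lower in the mean of every strain but were called in none with all replicates and no block, with log2 fold changes between -4.68 and -1.46 for betaTry and between -3.83 and -1.63 for epsilonTry. Their lowest adjusted p values were 0.0583 and 0.066. With the replicate block both were called in 82Eb (adjusted p = 8.15e-06 for betaTry and 1.75e-05 for epsilonTry) and epsilonTry in 21D (adjusted p = 0.038). gammaTry was too low to test, with 7, 6, 7, 5 and 16 counts over the libraries of 21D, 82Eb, 95Ca, 95Cb and 95Cc, against 50 in the WT, of which WT replicate 2 had 0.

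**Figure D2:**
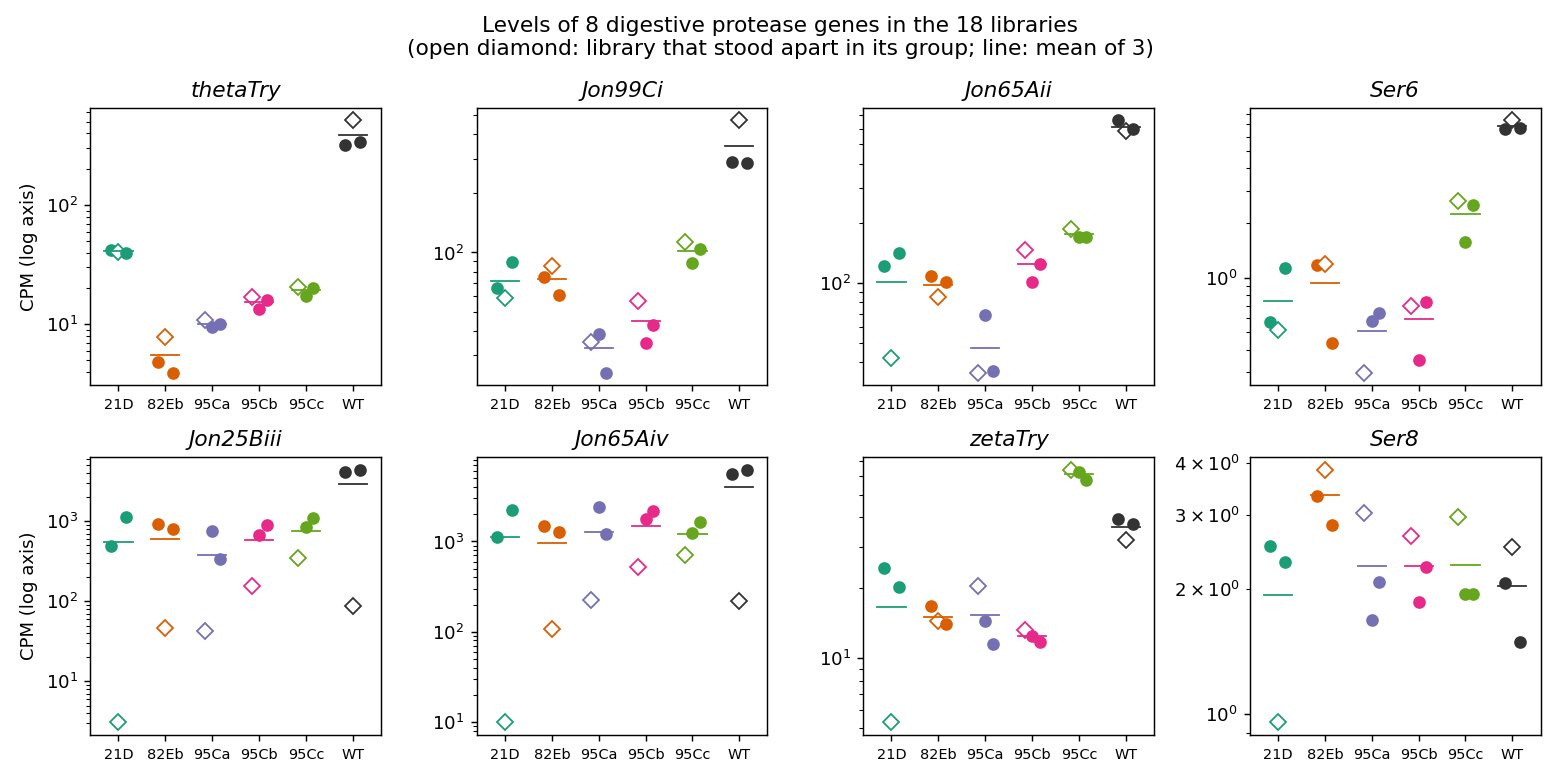
CPM (log axes) of 8 of the genes in each of the 18 libraries, by group, with the deletion strains left and the WT right; open diamonds are the library that stood apart in its group and lines are the mean of 3 libraries. For thetaTry, Jon99Ci, Jon65Aii and Ser6 no strain library reached the WT libraries, whereas for Jon25Biii and Jon65Aiv the open diamonds lie below the other libraries of each group, zetaTry is highest in 95Cc, and Ser8 overlaps in 4 of the 5 strains.

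Among the Jonah genes, 4 of 17 were called in at least 1 strain, and Jon99Ci was called in all 5. Jon99Ci had 65.8, 58.7 and 89.1 CPM in the 21D strain, 74.7, 85.2 and 61.1 CPM in the 82Eb strain, 35.0, 38.6 and 24.4 CPM in the 95Ca strain, 56.4, 34.7 and 42.7 CPM in the 95Cb strain and 113, 88.4 and 104 CPM in the 95Cc strain, against 289, 471 and 285 CPM in the WT (replicates 1 to 3). No strain library reached the lowest WT library. For Jon99Ci, the log2 fold change against the WT (± SE) was -2.16 ± 0.31 in 21D (adjusted p = 0.0351), -2.18 ± 0.17 in 82Eb (adjusted p = 0.00105), -3.29 ± 0.27 in 95Ca (adjusted p = 0.00108), -3.00 ± 0.22 in 95Cb (adjusted p = 0.000481) and -1.72 ± 0.16 in 95Cc (adjusted p = 0.00192). The calls in 82Eb, 95Ca, 95Cb and 95Cc stood under all 15 alternatives. Its neighbours in the 99C cluster, Jon99Cii and Jon99Ciii, were called in no strain with all replicates and no block. With the replicate block both were called in 21D (adjusted p = 0.049 and 0.0304).

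Jon74E, the member with the most introns, was low in all groups. Jon74E had 1.67, 3.31 and 1.3 CPM in the 21D strain, 0.983, 1.4 and 0.546 CPM in the 82Eb strain, 2.68, 1.97 and 1.36 CPM in the 95Ca strain, 3.47, 1.71 and 1.68 CPM in the 95Cb strain and 1.7, 1.76 and 1.0 CPM in the 95Cc strain, against 13.9, 23.9 and 11.5 CPM in the WT (replicates 1 to 3). The groups did not overlap. For Jon74E, the log2 fold change against the WT (± SE) was -2.92 ± 0.38 in 21D (adjusted p = 0.0245), -4.02 ± 0.34 in 82Eb (adjusted p = 0.00148), -2.91 ± 0.31 in 95Ca (adjusted p = 0.00336), -2.87 ± 0.33 in 95Cb (adjusted p = 0.00293) and -3.39 ± 0.28 in 95Cc (adjusted p = 0.00131). It was called in all 5 strains.

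Jon65Aii was the only gene of the 65A cluster called with all replicates and no block. Jon65Aii had 121, 41.7 and 141 CPM in the 21D strain, 108, 84.9 and 101 CPM in the 82Eb strain, 35.2, 68.9 and 35.9 CPM in the 95Ca strain, 147, 102 and 124 CPM in the 95Cb strain and 188, 170.0 and 169.7 CPM in the 95Cc strain, against 663, 582 and 596 CPM in the WT (replicates 1 to 3). WT replicate 2 was close to the other WT libraries, and the lowest WT library was above every strain library. For Jon65Aii, the log2 fold change against the WT (± SE) was -2.48 ± 0.54 in 21D (adjusted p = 0.144), -2.61 ± 0.26 in 82Eb (adjusted p = 0.00285), -3.61 ± 0.42 in 95Ca (adjusted p = 0.00517), -2.38 ± 0.22 in 95Cb (adjusted p = 0.00115) and -1.79 ± 0.18 in 95Cc (adjusted p = 0.0026). The 95Ca call was lost without 95Ca replicate 3 (adjusted p = 0.0526). The other 4 genes of this cluster had mean levels that were lower in every strain. None of them passed with all replicates and no block, with adjusted p of at least 0.104. With the block all 4 were called in 82Eb (adjusted p = 0.000654 for Jon65Ai, 8.82e-06 for Jon65Aiii, 0.000383 for Jon65Aiv and 0.00023 for yip7). In 21D the block added calls of Jon65Aii (adjusted p = 0.0103) and Jon65Aiii (adjusted p = 0.0466).

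Jon44E was called in 82Eb, 95Ca and 95Cb, and with the replicate block also in 21D (adjusted p = 0.0226). Jon44E had 103, 22.0 and 179 CPM in the 21D strain, 68.5, 33.2 and 62.2 CPM in the 82Eb strain, 7.85, 27.4 and 10.8 CPM in the 95Ca strain, 35.6, 28.0 and 37.5 CPM in the 95Cb strain and 96.2, 115 and 128 CPM in the 95Cc strain, against 469, 192 and 453 CPM in the WT (replicates 1 to 3). The highest strain library, 21D replicate 3, was close to WT replicate 2, which was the lowest in the WT, and the groups did not overlap. For Jon44E, the log2 fold change against the WT (± SE) was -1.77 ± 0.84 in 21D (adjusted p = 0.693), -2.75 ± 0.56 in 82Eb (adjusted p = 0.0437), -4.51 ± 0.73 in 95Ca (adjusted p = 0.0231), -3.57 ± 0.45 in 95Cb (adjusted p = 0.00481) and -1.74 ± 0.44 in 95Cc (adjusted p = 0.066). The 95Cb call stood under all 15 alternatives. The 82Eb call was lost without any 1 of its libraries or without WT replicate 1 or 3 (adjusted p between 0.0657 and 0.166), and the 95Ca call without 95Ca replicate 1 or 3 or WT replicate 1 or 3 (adjusted p between 0.0563 and 0.163).

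Most of the 13 Jonah genes that were not called varied widely between the libraries of a group, as Jon25Biii shows. Jon25Biii had 494, 3.09 and 1148 CPM in the 21D strain, 931, 46.2 and 807 CPM in the 82Eb strain, 42.8, 765 and 335 CPM in the 95Ca strain, 157, 672 and 908 CPM in the 95Cb strain and 349, 854 and 1092 CPM in the 95Cc strain, against 4199, 87.3 and 4437 CPM in the WT (replicates 1 to 3). WT replicate 2 overlapped with the strains. The ratio of the mean of the other 2 libraries to the library that stood apart ranged from 2.79 in 95Cc to 266 in 21D, and it was 49.4 in the WT. For Jon25Biii, the log2 fold change against the WT (± SE) was -2.32 ± 1.93 in 21D (adjusted p = 0.982), -2.28 ± 1.54 in 82Eb (adjusted p = 0.505), -2.87 ± 1.50 in 95Ca (adjusted p = 0.453), -2.43 ± 1.29 in 95Cb (adjusted p = 0.286) and -1.99 ± 1.23 in 95Cc (adjusted p = 0.446). With the replicate block it was called in 21D (adjusted p = 0.0303) and 82Eb (adjusted p = 0.000928). Jon65Aiv, the most abundant member, showed the same overlap. Jon65Aiv had 1131, 9.94 and 2258 CPM in the 21D strain, 1472, 107 and 1290.0 CPM in the 82Eb strain, 227, 2391 and 1216 CPM in the 95Ca strain, 521, 1797 and 2188 CPM in the 95Cb strain and 717, 1234 and 1648 CPM in the 95Cc strain, against 5663, 222 and 6256 CPM in the WT (replicates 1 to 3). Its log2 fold changes lay between -2.07 and -1.54, with adjusted p of at least 0.422 with all replicates and no block.

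This ratio was taken for the 29 members tested in every strain with all replicates. In the strains, the number of members with a ratio above 4 was 19 (21D), 12 (82Eb), 12 (95Ca), 5 (95Cb) and 2 (95Cc), against a share of all genes of 9.95% (21D), 3.34% (82Eb), 2.55% (95Ca), 1.88% (95Cb) and 1.18% (95Cc). In the WT, 13 of 29 were above 4 (11 Jonah genes, betaTry and epsilonTry), against 4.51% of 12803 genes, and 12 were below 2. Jon99Cii in 21D reached the highest ratio, with 1 count in replicate 2 and 4853 and 8762 counts in replicates 1 and 3. In the WT it was Jon25Bii, with 9.4 CPM in replicate 2 and 2393 and 2214 CPM in replicates 1 and 3. By contrast 10 members, among them thetaTry, Jon74E, lambdaTry, kappaTry and Jon99Ci, had ratios below 1 in the WT, so that they were higher in WT replicate 2 than in the mean of the other 2 libraries. The clusters differed in this. The WT ratio was 49.4 to 245 in the 25B cluster, 11.5 to 55.5 in the 66C pair and 16.5 to 33.6 in the 99F pair, where every member was above 4. It was 1.08 to 26.9 in the 65A cluster and 0.636 to 20.0 in the trypsin cluster, where members lay on both sides. In the 99C cluster the WT ratio was 232 for Jon99Cii and 50.9 for Jon99Ciii, and 0.61 for Jon99Ci.

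Larval cuticle genes were also read in these libraries. Their summed level over Lcp1, Lcp2, Lcp3 and Lcp4 in the library that stood apart was 2273 CPM (21D), 4693 CPM (82Eb), 8104 CPM (95Ca), 5317 CPM (95Cb) and 24910.1 CPM (95Cc), against 3483 CPM in WT replicate 2. In the other 2 libraries it was 24338 and 32364 CPM (21D), 21787 and 18813 CPM (82Eb), 16705 and 16104 CPM (95Ca), 11957 and 11213 CPM (95Cb) and 26959.5 and 26341 CPM (95Cc), against 27898 and 23231 CPM in WT replicates 1 and 3. The library that stood apart was thus the lowest of its group in all 6 groups, by a small margin in 95Cc. The summed enterocyte markers were lowest in the library that stood apart in 21D only, with 371 CPM in that library and 485 and 463 CPM in replicates 1 and 3. In that library the sum was 575 CPM (82Eb), 505 CPM (95Ca), 728 CPM (95Cb) and 612 CPM (95Cc), against 801 CPM in WT replicate 2, and it was the highest of its group in each of these 5 groups. The other 2 libraries had 545 and 512 CPM (82Eb), 504 and 445 CPM (95Ca), 621 and 614 CPM (95Cb) and 570 and 527 CPM (95Cc), against 725 and 699 CPM in the WT. In 95Ca replicates 1 and 2 were thus nearly equal. What sets these libraries apart was not tested.

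**Figure D3:**
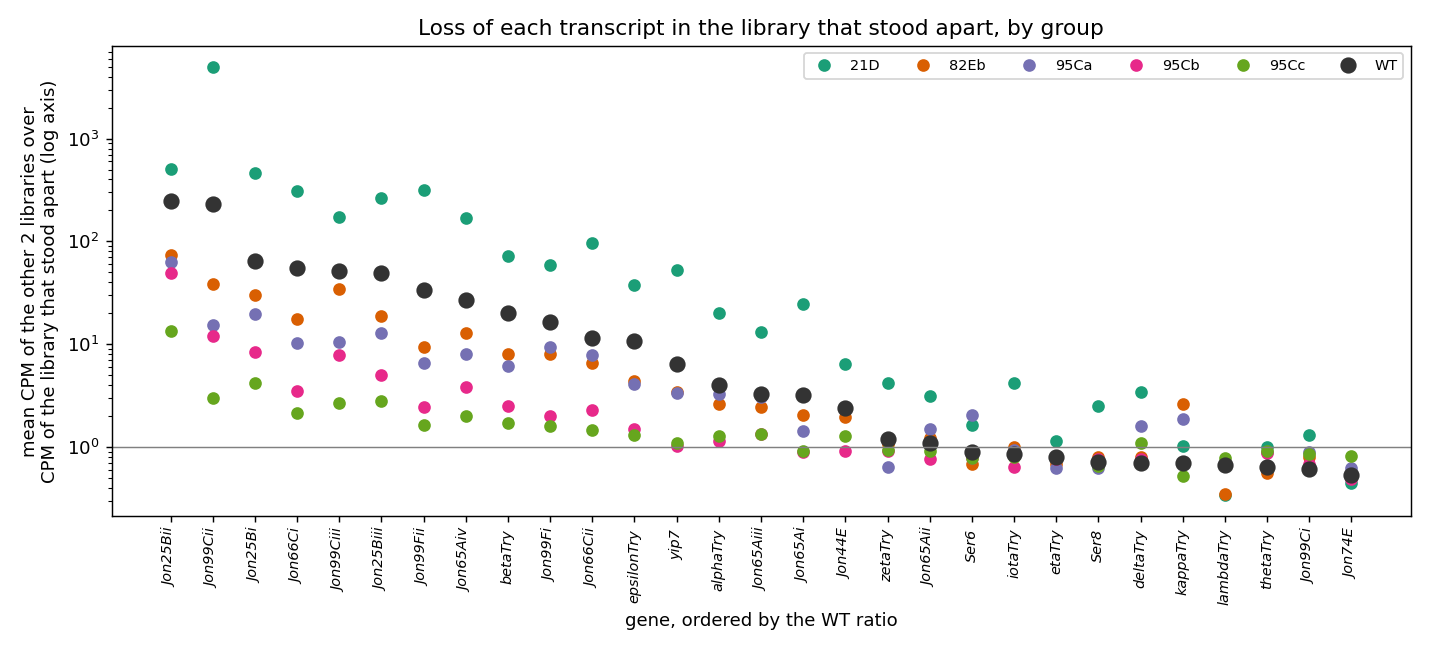
For each tested gene and group, the mean CPM of the other 2 libraries over the CPM of the library that stood apart (log axis), with genes ordered by the WT ratio; the grey line is a ratio of 1. The 21D points (replicate 2) lie above the other groups for most Jonah genes, and the WT ratios run from 245 for Jon25Bii to 0.532 for Jon74E; lambdaTry has no point in 95Ca and 95Cb, where that library had 0 counts.

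Without the library that stood apart in each group, 2 against 2 libraries remained and most members were called lower. The number among the 30 tested was 20 (21D), 26 (82Eb), 26 (95Ca), 29 (95Cb) and 27 (95Cc), and no member was called higher. The share of all genes called lower in the same fits was 3.14% (21D), 7.92% (82Eb), 3.78% (95Ca), 7.08% (95Cb) and 3.59% (95Cc). Of the 17 Jonah genes, the number called lower was 12 (21D), 14 (82Eb), 16 (95Ca), 17 (95Cb) and 17 (95Cc). None of the 13 members with a WT ratio above 4 was called in any strain by edgeR with all replicates and no block. In 21D, 82Eb, 95Ca, 95Cb and 95Cc, 0, 2, 4, 4 and 4 had an unadjusted p below 0.05, and DESeq2 called 0, 2, 2, 3 and 3. Without the libraries that stood apart, these 13 gave calls numbering 7 (21D), 10 (82Eb), 12 (95Ca), 13 (95Cb) and 13 (95Cc). Their median log2 fold change in these fits was -1.74 (21D), -2.08 (82Eb), -2.69 (95Ca), -2.54 (95Cb) and -2.24 (95Cc). The 13 were picked by their low value in WT replicate 2, which these fits leave out. Their gain in calls therefore follows from that choice and is no test. These libraries were left out because they stood apart on a component in which the members themselves weigh, and the counts without them are a description of the remaining libraries.

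The 3 genes of the 25B cluster were then called in all 5 strains. Jon25Biii had log2 fold changes of -2.31 (21D), -2.29 (82Eb), -2.94 (95Ca), -2.54 (95Cb) and -2.20 (95Cc), with adjusted p between 3.47e-07 and 0.0263. The 99C and 99F genes varied more between strains than the 25B genes. This was not particular to them, as Jon66Cii had -1.07 in 21D and -4.08 in 95Cb. With all replicates, no difference between strains was called for Jon99Ciii or Jon99Fi. Jon99Ciii gave log2 fold changes of -0.38 ± 0.10 (adjusted p = 0.0157) in 82Eb and -2.30 ± 0.44 (adjusted p = 0.0407) in 95Ca, and Jon99Fi -0.70 ± 0.09 (adjusted p = 0.000364) in 82Eb and -2.15 ± 0.37 (adjusted p = 0.0285) in 95Ca. Both genes passed the p threshold in 82Eb with a fold change below 2. In 21D, 10 members were not called in these fits (Jon65Aiii, Jon66Ci, Jon99Ciii, Jon99Fi, Jon99Fii, betaTry, gammaTry, epsilonTry, zetaTry and Ser8). The others not called were Jon99Cii, Jon99Ciii, Jon99Fi and Ser8 in 82Eb, Jon65Aiv, gammaTry, deltaTry and Ser8 in 95Ca, Ser8 in 95Cb, and zetaTry, lambdaTry and Ser8 in 95Cc.

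Of the Ser genes, Ser6 fell in all 5 strains. Ser6 had 0.571, 0.515 and 1.13 CPM in the 21D strain, 1.18, 1.19 and 0.437 CPM in the 82Eb strain, 0.298, 0.575 and 0.639 CPM in the 95Ca strain, 0.694, 0.352 and 0.729 CPM in the 95Cb strain and 2.64, 1.58 and 2.51 CPM in the 95Cc strain, against 6.61, 7.38 and 6.68 CPM in the WT (replicates 1 to 3). The groups did not overlap, and the WT libraries were close together. For Ser6, the log2 fold change against the WT (± SE) was -3.10 ± 0.43 in 21D (adjusted p = 0.0345), -2.85 ± 0.36 in 82Eb (adjusted p = 0.00792), -3.69 ± 0.38 in 95Ca (adjusted p = 0.00307), -3.61 ± 0.31 in 95Cb (adjusted p = 0.000875) and -1.59 ± 0.23 in 95Cc (adjusted p = 0.0102). The 95Cc call was lost without 95Cc replicate 1 (adjusted p = 0.0527). Ser8 was not called in any strain. Ser8 had 2.52, 0.957 and 2.32 CPM in the 21D strain, 3.34, 3.86 and 2.84 CPM in the 82Eb strain, 3.03, 1.68 and 2.08 CPM in the 95Ca strain, 2.68, 1.86 and 2.26 CPM in the 95Cb strain and 2.97, 1.94 and 1.94 CPM in the 95Cc strain, against 2.07, 2.52 and 1.49 CPM in the WT (replicates 1 to 3). Its groups overlapped except in 82Eb, where all 3 libraries were above the WT. For Ser8, the log2 fold change against the WT (± SE) was 0.07 ± 0.47 in 21D (adjusted p = 1), 0.77 ± 0.23 in 82Eb (adjusted p = 0.134), 0.23 ± 0.29 in 95Ca (adjusted p = 0.772), 0.11 ± 0.26 in 95Cb (adjusted p = 0.827) and 0.21 ± 0.25 in 95Cc (adjusted p = 0.732).

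Whether the strains differ from each other was tested in a single fit over all 6 groups, in which each of the 10 pairs of strains was a contrast. Of 34 calls of a member in a pair, 24 involved 95Cc, and 23 of those were higher in 95Cc. Higher in 95Cc were 4 of 29 members against 21D, 5 against 82Eb, 8 against 95Ca and 6 against 95Cb, where 3.77%, 5.38%, 4.36% and 9.45% of all genes were. thetaTry was the only member called lower in 95Cc than in another strain, 21D (-1.13 ± 0.17, adjusted p = 0.000631), where 2.4% of all genes were lower.

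Of the 24 calls with 95Cc, kappaTry, zetaTry and lambdaTry gave 4 each, etaTry and Ser6 3 each, thetaTry and Jon99Ci 2 each, and Jon44E and Jon65Aii 1 each. kappaTry was higher in 95Cc than in each of the other strains, by a log2 fold change (± SE) of 2.28 ± 0.38 (adjusted p = 0.00149) over 21D, 4.17 ± 0.44 (adjusted p = 1.8e-05) over 82Eb, 4.06 ± 0.44 (adjusted p = 5.42e-05) over 95Ca and 4.81 ± 0.47 (adjusted p = 5.63e-06) over 95Cb. zetaTry was also higher than in all 4, by 1.79 over 21D (adjusted p = 0.0119) to 2.36 over 95Cb (adjusted p = 0.00103), but these 4 calls of zetaTry were all lost without replicate 1 and without replicate 3 of every group. lambdaTry was higher than in all 4 as well (adjusted p between 7.49e-05 and 0.0165). etaTry was higher in 95Cc than in 82Eb, 95Ca and 95Cb (log2 fold changes of 1.21, 1.29 and 1.15, adjusted p of at most 0.000925). thetaTry was higher in 95Cc than in 82Eb (1.84 ± 0.17, adjusted p = 6.15e-06). As for zetaTry, the calls of kappaTry, lambdaTry and thetaTry between 95Cc and 21D were lost without replicate 1 and without replicate 3. So were those of etaTry against 82Eb and 95Ca. The call of lambdaTry against 95Ca was lost without replicate 1, and that of etaTry against 95Cb without replicate 3. No difference between 95Cc and another strain was called for alphaTry, epsilonTry, betaTry, deltaTry or iotaTry.

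Outside the cluster, Ser6 was higher in 95Cc than in 21D, 95Ca and 95Cb, and Jon99Ci than in 95Ca and 95Cb, by a log2 fold change of 1.58 ± 0.25 (adjusted p = 0.00108) over 95Ca and 1.24 ± 0.25 (adjusted p = 0.00274) over 95Cb. Jon44E and Jon65Aii were higher than in 95Ca only. All these calls of Ser6, Jon99Ci, Jon44E and Jon65Aii with 95Cc were lost without replicate 1 and without replicate 3 of every group. Among the pairs without 95Cc, thetaTry was lower in 82Eb, 95Ca and 95Cb than in 21D, with a log2 fold change of -2.97 ± 0.18 (adjusted p = 1.51e-07) for 82Eb. Called lower than in 21D were 2 members in 82Eb, 3 in 95Ca and 3 in 95Cb, against 1.73%, 1.05% and 2.38% of all genes. Against 82Eb, Jon99Ci was lower in 95Ca (0.275% of all genes) and thetaTry higher in 95Cb (0.863% of all genes). No member was called between 95Cb and 95Ca (2 had an unadjusted p below 0.05, and DESeq2 called none), where 0.481% of all genes were called higher in 95Cb and 0.725% lower. Of the 34 calls, 8 stood under all 8 alternatives, all of them calls of thetaTry, kappaTry or lambdaTry, and none changed direction. With a single replicate number left out of all groups, the total was 9 without replicate 1, 58 without replicate 2 and 10 without replicate 3. The share of all genes called in these fits is not given.

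Muscle genes moved with 95Cc. The 6 muscle markers together had 41492 to 49851 CPM in 95Cc, 27250.4 to 32064 in 95Ca and at most 26497 in any library of 21D, 82Eb and 95Cb, against 16070.2 to 22278 CPM in the WT, and 3 of the 6 (up, Act57B and Mhc) were called higher in 95Cc than in the WT. wupA, another of the 6, was called lower in 95Cb (log2 fold change -1.04, adjusted p = 0.0317). The 5 peritrophic matrix markers had 757 to 809.5 CPM in 95Cc, against 558 to 664 in the WT. Of these 5, 1 was at 0 in 95Cc and 1 in the WT. None of the 4 tested was called in 95Cc by edgeR, and 1 was higher at an unadjusted p below 0.05. None of the muscle markers was at 0 in a group. The part of these differences in the protease values was not tested.

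**Figure D4:**
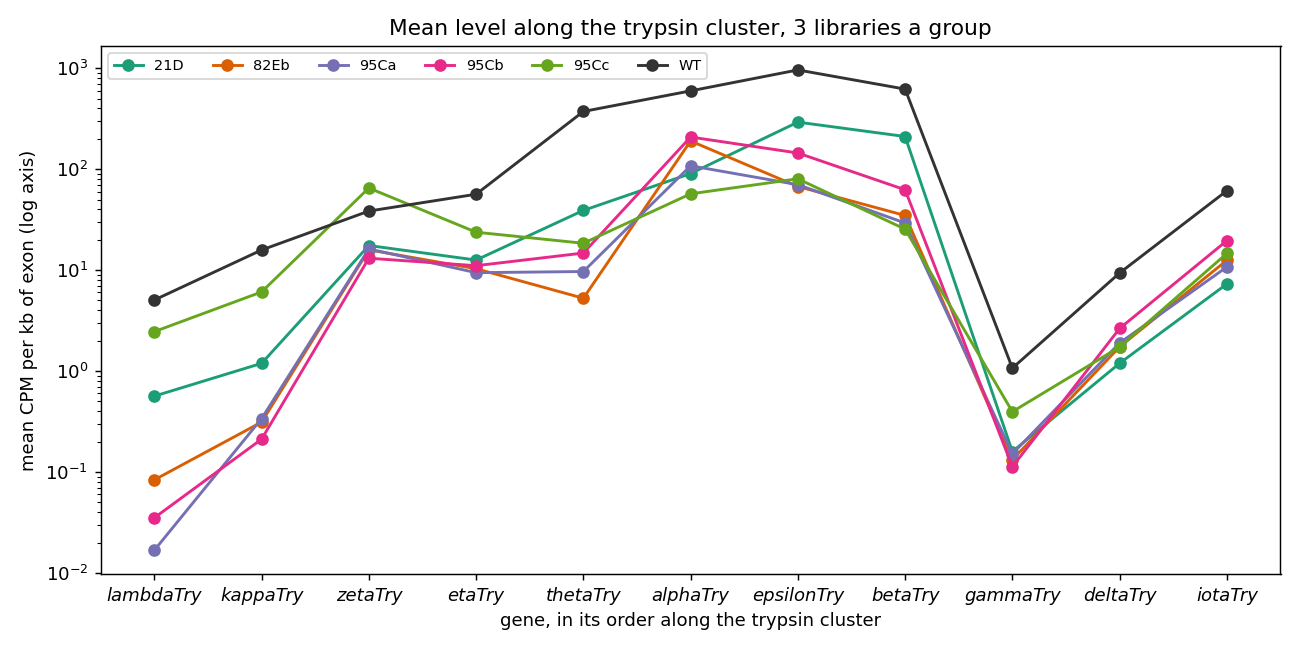
Mean CPM per kb of exon (log axis, 3 libraries a group) of the 11 trypsin genes in their order along the cluster, for the 5 deletion strains and the WT. The 95Cc line is the nearest of the 5 strains to the WT at lambdaTry and kappaTry (2.46 and 6.08, against 5.06 and 15.8 in the WT) and lies above it at zetaTry (65.1, against 38.4 in the WT), and from thetaTry on it lies below the WT with the other strains.

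The labelled tissue, whole larvae, held the markers of the gut, and part of the gut markers were lower in the strains as well. The 8 enterocyte markers together had 371 to 485 CPM in 21D, 512 to 575 CPM in 82Eb, 445 to 505 CPM in 95Ca, 614 to 728 CPM in 95Cb and 527 to 612 CPM in 95Cc, against 699 to 801 CPM in the WT, and none was at 0 in a group. mex1, a gene of the midgut brush border, was called lower in 82Eb, 95Ca, 95Cb and 95Cc, with log2 fold changes of -1.34 (21D), -2.48 (82Eb), -2.77 (95Ca), -1.94 (95Cb) and -1.66 (95Cc). In contrast Myo31DF, a brush border myosin, had -0.16 (21D), 0.02 (82Eb), 0.09 (95Ca), 0.24 (95Cb) and 0.19 (95Cc), and Myo61F, another myosin of enterocytes, had -0.58 (21D), 0.10 (82Eb), -0.05 (95Ca), 0.18 (95Cb) and 0.03 (95Cc), without a call. Vha100-4, a proton pump subunit of the acid-secreting copper cells, was called lower in all 5 strains, with log2 fold changes of -1.88 (21D), -3.72 (82Eb), -4.05 (95Ca), -3.05 (95Cb) and -1.38 (95Cc), while the other 3 copper cell markers (lab, dve and Ptx1) were not called. Of the 8 enterocyte markers, the number called lower was 0 (21D), 2 (82Eb), 2 (95Ca), 1 (95Cb) and 2 (95Cc), and DESeq2 called 2, 2, 2, 1 and 2. In 21D, 4 of them had an unadjusted p below 0.05. The part of these differences in the protease values was not tested.

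None of the 6 fat body markers was called by edgeR in any strain with all replicates (at an unadjusted p below 0.05 there were 0, 1, 0, 2 and 1 in 21D, 82Eb, 95Ca, 95Cb and 95Cc, and DESeq2 called 0, 1, 0, 1 and 0). Without the libraries that stood apart, edgeR called 1 of them higher in 82Eb. Called lower with all replicates were AstC and Dh31 of the 9 enteroendocrine markers in 82Eb and AstC in 95Cb, Gasp of the 5 peritrophic matrix markers in 82Eb, 95Ca and 95Cb, and Uro of the 3 Malpighian tubule markers in 82Eb. Of the 7 salivary glue markers, Sgs4 was called higher in 82Eb and Sgs8 in 95Cb, and at an unadjusted p below 0.05 the number higher was 1 (21D), 4 (82Eb), 3 (95Ca), 5 (95Cb) and 0 (95Cc). At the same unadjusted p the number lower was 0 (21D), 0 (82Eb), 0 (95Ca), 1 (95Cb) and 3 (95Cc). The 7 together had 11221 to 30651 CPM in 21D, 24818 to 32775 CPM in 82Eb, 19361 to 29337 CPM in 95Ca, 26755 to 27900.5 CPM in 95Cb and 11642 to 14515 CPM in 95Cc, against 13526 to 20926 CPM in the WT, so that every library of 82Eb and 95Cb was above every WT library. The glue genes are transcribed in the salivary gland late in the third instar. The part of these differences in the protease values was not tested.

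Other peptidase genes were read from 2 further lists. Of 31 other genes listed as secreted serine proteases of the trypsin and chymotrypsin kind, without a check of their sequence, 17 to 19 were tested. The number called lower was 0 (21D), 8 (82Eb), 7 (95Ca), 6 (95Cb) and 5 (95Cc). Of all genes tested, 0.892% (21D), 3.8% (82Eb), 2.51% (95Ca), 5.96% (95Cb) and 2.73% (95Cc) were called lower. The median log2 fold change of the list was -1.53 (21D), -2.14 (82Eb), -2.17 (95Ca), -1.70 (95Cb) and -1.38 (95Cc). In 21D, no gene of this list was called with all replicates by edgeR, although 8 had an unadjusted p below 0.05 and DESeq2 called 5, and 8 were called without the library that stood apart. In such fits of the other strains 14 (82Eb), 11 (95Ca), 11 (95Cb) and 11 (95Cc) were called lower, and 0, 1, 1 and 1 higher. The share of all genes called lower without these libraries was 3.14% (21D), 7.92% (82Eb), 3.78% (95Ca), 7.08% (95Cb) and 3.59% (95Cc). With all replicates, CG11911 had the lowest log2 fold change of the list in every strain, with -3.12 (21D), -5.12 (82Eb), -5.27 (95Ca), -4.58 (95Cb) and -2.65 (95Cc), and it was called in all but 21D. CG7542 was the only gene of the list called higher with all replicates, in 95Ca (2.10) and 95Cb (2.64), and it was called lower in 82Eb (-3.97).

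Of 23 matched genes of other peptidases (cathepsins, carboxypeptidases, astacins and aminopeptidases), 20 or 21 were tested, and the number called lower was 4 (21D), 8 (82Eb), 6 (95Ca), 9 (95Cb) and 4 (95Cc). The shares of all genes called lower were those given for the list of other serine proteases. CG7631, of the astacin family of metallopeptidases, was called lower in all 5 strains, with log2 fold changes of -4.08 (21D), -4.90 (82Eb), -4.27 (95Ca), -4.34 (95Cb) and -3.01 (95Cc). CG15255, also an astacin, and CG8562, a carboxypeptidase, were called lower in every strain but 95Cc. For CG15255 the log2 fold changes were -2.31 (21D), -3.90 (82Eb), -3.29 (95Ca), -3.43 (95Cb) and -0.84 (95Cc). Called higher in 95Cc were CG15254, CG8563 and CG31343 (3 genes), and SP1029 was called higher in 95Cb (log2 fold change 1.62, adjusted p = 0.00257). Of the 3, CG31343, an aminopeptidase, had 278 CPM in 95Cc, against 94.9 CPM in the WT (means of 3 libraries, log2 fold change 1.62, adjusted p = 0.00489), and it was lower than the WT in 82Eb (-3.31, adjusted p = 0.000865) and in 95Cb (-2.55, adjusted p = 0.00181). The median log2 fold change of this list was -0.55 (21D), -0.59 (82Eb), -0.81 (95Ca), -0.25 (95Cb) and -0.45 (95Cc).

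The 20 listed regulators (GATA factors of the gut, the activin and ecdysone pathways and nutrient sensors) were all tested and showed few changes. With all replicates, none was called in 21D, 82Eb or 95Ca by edgeR or DESeq2 (3, 6 and 2 had an unadjusted p below 0.05), and at most 1 in each direction in 95Cb and 95Cc. Without the library that stood apart in each group, edgeR called 2 lower in 21D, 1 lower in 82Eb and 0 in 95Ca. With all replicates GATAe, a transcription factor that activates digestive enzyme genes in the midgut, had log2 fold changes of -1.20 (21D), -0.97 (82Eb), -1.06 (95Ca), -0.84 (95Cb) and -1.35 (95Cc), and was called in 95Cc only (adjusted p = 0.0429). ftz-f1, called lower in 95Cb, and Hr3, called higher there, are nuclear receptors of the ecdysone response.

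Inside the spans of the clusters lie 5 genes that are no members, 2 in the 65A cluster and 3 in the trypsin cluster. None was called by edgeR in any strain in which it passed the filter, with 0, 1, 0, 0 and 2 at an unadjusted p below 0.05 in 21D, 82Eb, 95Ca, 95Cb and 95Cc, and 1 called by DESeq2 in 95Cc. CG6462 and lncRNA:CR43952, between yip7 and Jon65Aiv, averaged 0.341 to 1.13 CPM and 0.532 to 2.48 CPM in the strains, against 1.14 ± 0.538 and 1.84 ± 0.903 CPM in the WT (SD, n = 3). CG30031, between gammaTry and deltaTry, had 18, 16, 19, 12 and 19 counts over the libraries of 21D, 82Eb, 95Ca, 95Cb and 95Cc, against 89 in the WT.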

How the data were processed

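Per the labels, strand-specific libraries of total RNA without rRNA were sequenced from whole third-instar larvae (18 libraries, 6 groups). The study's supplement speaks of mRNA sequencing, and the difference could not be settled here. The authors deposited raw counts per gene. Their reads were trimmed (the submitters' processing notes name Trimmomatic 0.39 and cutadapt 1.15) and aligned to dm6, and reads were assigned to annotated genes. The strand setting and the treatment of reads with several positions are not given in the sources used here, and both can shift the counts of the near-identical trypsins. Counts were used as deposited. Library totals ran from 11919121 to 21776613 counts over 17562 genes, so that 0 counts allow up to 0.252 CPM in the shallowest library. CPM is the count scaled by the library total, and CPM per kb divides it by the exonic length in the table.

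Strain and WT were set against each other in a separate fit for each strain (edgeR 4.0.16, quasi-likelihood, R 4.3.3), over the genes that passed filterByExpr (minimum count 10, minimum total 15), with TMM factors and Benjamini-Hochberg adjustment over all genes tested. A gene was called at an adjusted p below 0.05 and a fold change above 2. The SE of a log2 fold change is its size over the square root of F. Strains were compared with each other in 1 fit over all groups. The procedure was tested on simulated data. Alternatives were DESeq2 1.42.0, library totals, no filter, a length correction, the replicate number as a block, 1 fit over all groups, other sets of libraries, and leaving out each library.

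Replicate numbers were taken to pair the samples where every same-numbered pair of strain and WT libraries deviated together from its group mean (correlation over genes above 0.1). This held for 21D (0.699, 0.862 and 0.723) and 82Eb (0.712, 0.872 and 0.708), and not for 95Ca, 95Cb and 95Cc, where 2 of 3 were negative. The labels say nothing of shared batches. The pairing was thus read from the same counts that were tested. The WT, 21D and 82Eb share replicate 2 as the library that stood apart, which alone can make such correlations positive.

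The members, the lists of other peptidases, regulators and markers, and the libraries left out were chosen with earlier results of these data known. Library values in full are given for members called in at least 1 strain, at most 6 of a subfamily by mean CPM. lambdaTry, deltaTry, Jon25Biii, Jon25Bii, Jon65Aiv, Jon99Cii, Jon99Ciii, Jon99Fi and Ser8 were added after their values were seen, and so were the single genes named from the lists. Protein identity between members and a sequence filter on the list of other serine proteases were not applied. For that list and the others, gene symbols were matched through current names and synonyms. Primer sequences come from the study's supplementary material.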

Additional observations from a re-analysis of the deposited data

Results flagged for a closer look

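At least 1 member was called between strains in 9 of the 10 pairs, by the test of the difference itself (edgeR, 1 fit over all groups, adjusted p below 0.05 and a fold change above 2). The number of the 29 members called was 8 for 95Cc against 95Ca, 6 for 95Cc against 95Cb and 5 for 95Cc against 82Eb, all higher in 95Cc, against 4.36%, 9.45% and 5.38% of all genes called higher. For 95Cc against 21D it was 4 higher and 1 lower, against 3.77% and 2.4% of all genes. It was 3 for 95Ca against 21D, 3 for 95Cb against 21D and 2 for 82Eb against 21D, all lower than in 21D, against 1.05%, 2.38% and 1.73% of all genes. Of the 34 calls over all pairs, 8 stood under all 8 alternatives. Jon99Ci was the 1 member called between 95Ca and 82Eb, lower in 95Ca against 0.275% of all genes, and its call was kept in 3 of 8 alternatives. It was lost with the replicate block, with no filter, without the libraries that stood apart, and without replicate 1 or 3. thetaTry was the 1 member called between 95Cb and 82Eb, higher in 95Cb against 0.863% of all genes, and its call was lost without replicate 1 or 3.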

How the results depend on the processing

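In the 50 called fold changes of members, none turned its direction under any of the 15 alternatives, and 29 kept their call under all of them. Over all 145 fold changes, the direction turned in 7 of 2175 values. These were Jon99Ciii in 82Eb (between -0.95 and 0.20 when a library was left out, and above 0 without 82Eb replicate 2, WT replicate 1 or WT replicate 3) and Ser8 in 21D (-0.050 with library totals, and between -0.16 and 0.42 when a library was left out, below 0 without 21D replicate 1, 21D replicate 3 or WT replicate 3), neither of them called.

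Counts of called members moved more. With the replicate block they were 21 in 21D, 25 in 82Eb and 6 in 95Ca, and with the block and the length correction 23, 25 and 4. In 95Ca, 95Cb and 95Cc the numbers did not pair the samples. With replicates 1 and 3 only, the counts were 20, 26, 21, 21 and 22 in 21D, 82Eb, 95Ca, 95Cb and 95Cc. Without the library that stood apart in each group they were 20, 26, 26, 29 and 27, and 53 between strains. DESeq2 called 17 in 95Ca and 16 in 95Cc. Leaving out a library gave 0 to 9 in 21D, 11 to 24 in 95Cb and 7 to 26 in 95Cc, and 9 to 58 between strains. The cause was not tested. The share of all genes called is not given for the block with the length correction or for fits with a library left out. Nor is it given for the changed totals between strains, so these counts do not set the members apart from other genes. Low counts limit lambdaTry, gammaTry and Ser8, and near-identical copies limit gammaTry and deltaTry.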
